A study of Mus musculus with 61 samples.

Results

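Gene expression was compared between hepatocytes that lack gp130 (gp130-) and control hepatocytes (gp130flox) after 6 h of stimulation with interleukin-6 (IL-6), for every gene that the arrays detected. The comparison takes the 12 arrays of this time from the 61 arrays of the series, 5 of gp130- and 7 of gp130flox hepatocytes. Arrays entered by their genotype and time alone, and no measured value was used to choose them. In gp130- mice a Cre recombinase driven by the albumin promoter deletes the floxed gp130 gene, Il6st, and the gp130flox littermates carry the floxed gene without the recombinase and are labelled wild type. All mice are labelled C57BL/6, and the sources used here state neither their age nor their sex. The isolated cells were kept on collagen in medium with serum, starved overnight and given IL-6 at 200 ng/mL without serum, and no array at 6 h went without IL-6. Cells without albumin promoter activity, and hepatocytes in which Cre did not recombine the gene, keep gp130 in this model. In such bulk RNA, fewer cells of a type and less RNA per cell cannot be told apart.

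The protein gp130 is the signaling subunit shared by the receptors for IL-6, oncostatin M, leukemia inhibitory factor and related cytokines. In hepatocytes IL-6 binds its own receptor chain, gp130 activates Janus kinases, and the transcription factor STAT3 is phosphorylated and moves to the nucleus. STAT3 with C/EBP factors and NF-kappaB drives the acute phase response, in which the liver secretes defense, coagulation and iron-binding proteins and lowers some of its own carrier proteins and metabolic enzymes. SOCS proteins, themselves induced by STAT3, shut the signal off.

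Each array is an Illumina MouseWG-6 v2 bead array, whose probes glow with the amount of their transcript, and all levels here are log2 of the background-corrected and quantile-normalized signal. The arrays detected 15489 to 18596 of 45281 probes, and the lowest detected signals lay between 4.50 and 4.79, so that levels near 4 stand for background. A gene was tested with the brightest of its probes when this was detected on at least 5 of the 12 arrays, which held for 10014 of 19057 genes. Columns of the deposited table give each array a number within its genotype, and nothing in the sources used here says what the number stands for. The study gives a number of mice per genotype, which is below the number of gp130flox arrays, and ties no array to a mouse, so p-values measure the spread between these samples, which may in part be technical. The gp130flox arrays carry the numbers 1, 2, 7, 8, 9, 10 and 11 and the gp130- arrays the numbers 2, 3, 4, 6 and 7. Numbers 1 to 4 and 6 to 11 parted on the first principal component, with 67.1% of the variance, and 4329 genes (43.2%) differed between these 2 sets. This set was therefore a covariate of the fit, with 2 gp130flox and 3 gp130- arrays in numbers 1 to 4 and 5 gp130flox and 2 gp130- arrays in numbers 6 to 11. A gene was called when its adjusted p (limma, Benjamini-Hochberg over all genes tested) was under 0.05 and its fold change over 1.5, and differences are log2 values of gp130- minus gp130flox.

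Some arrays stood apart from what the labels say. The defining hepatocyte markers were not alike in the sets: albumin (Alb) was not detected on any array of numbers 1 to 4 and lay between 4.74 and 7.68 on those of numbers 6 to 11, while transferrin (Trf) was between 13.87 and 14.62 on all arrays and the liver transcription factor Hnf4a between 7.04 and 9.27. Of the 19 hepatocyte markers on the array, only Tat was detected on none. In numbers 1 to 4, however, 6 of the 19 were detected on no gp130flox array and 3 on no gp130- array. In numbers 6 to 11 these counts were 1 and 2. Asgr1 lay between 4.47 and 6.30 in numbers 1 to 4 and between 10.90 and 12.25 in numbers 6 to 11. Apob went the other way, between 9.60 and 10.90 and between 7.78 and 9.74. Xist, the RNA of the inactive X chromosome, was at 7.10 and 7.58 on arrays 2 and 3 of gp130-, and Eif2s3y, a Y-linked gene, was near background on both and between 7.67 and 9.74 on every other array. Apoe was at 5.55 and 4.82 on arrays 2 and 4 of gp130- and between 9.81 and 13.62 on the others, and the study also bred gp130- mice that lack apolipoprotein E. Counts below are given also without these arrays where they changed by over 1.5 times.

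Il6st, the targeted gene, was lower on every gp130- array than on every gp130flox array. Its level was 5.05, 5.34 and 5.05 on gp130- arrays 2, 3 and 4 and 5.93 and 5.87 on arrays 6 and 7. On the gp130flox arrays it ran from 6.13 over a median of 6.21 to 6.82. The means were 5.45 ± 0.43 (SD, n = 5) and 6.37 ± 0.27 (SD, n = 7), and with the set as covariate the difference was -0.76 (SE 0.16, limma adjusted p = 0.0172). An exact two-sided permutation test of the genotype within the sets gave p = 0.00476, the smallest that its 210 permutations can give. Without the gp130- arrays of low Apoe signal the difference was -0.63 (limma adjusted p = 0.0540), and without gp130- array 7 it was -0.81 (limma adjusted p = 0.0571). The position of the probe against the deleted exons is unknown here, and the value is therefore no measure of the share of recombined alleles. The other Il6st probe of the array was detected on 0 of the 12 arrays.

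At 6 h, 234 genes were lower in gp130- hepatocytes (2.34% of those tested) and 166 were higher (1.66%), 400 in all (3.99%). The losses were deeper than the gains: 104 of the lower and 60 of the higher genes differed over 2-fold, and 20 lower but 0 higher genes differed over 4-fold. All gp130- arrays lay below all gp130flox arrays for 56 of the lower genes, and above them for 22 of the higher genes, where 0.749% and 0.419% of all genes tested did so. Without the arrays of Xist signal 444 genes were lower and 378 higher, and without those of low Apoe signal 266 and 203. Of the 400 called genes, 363 and 331 were called again in these fits. The counts rested most on the gp130- arrays of numbers 6 to 11, with 88 lower and 47 higher genes without array 6 and 74 and 41 without array 7. They were 143 and 92 without gp130flox array 11, and leaving out gp130flox array 8 gave 153 lower and array 7 gave 105 higher genes. The median difference over all genes was -0.01.

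**Figure D1:**
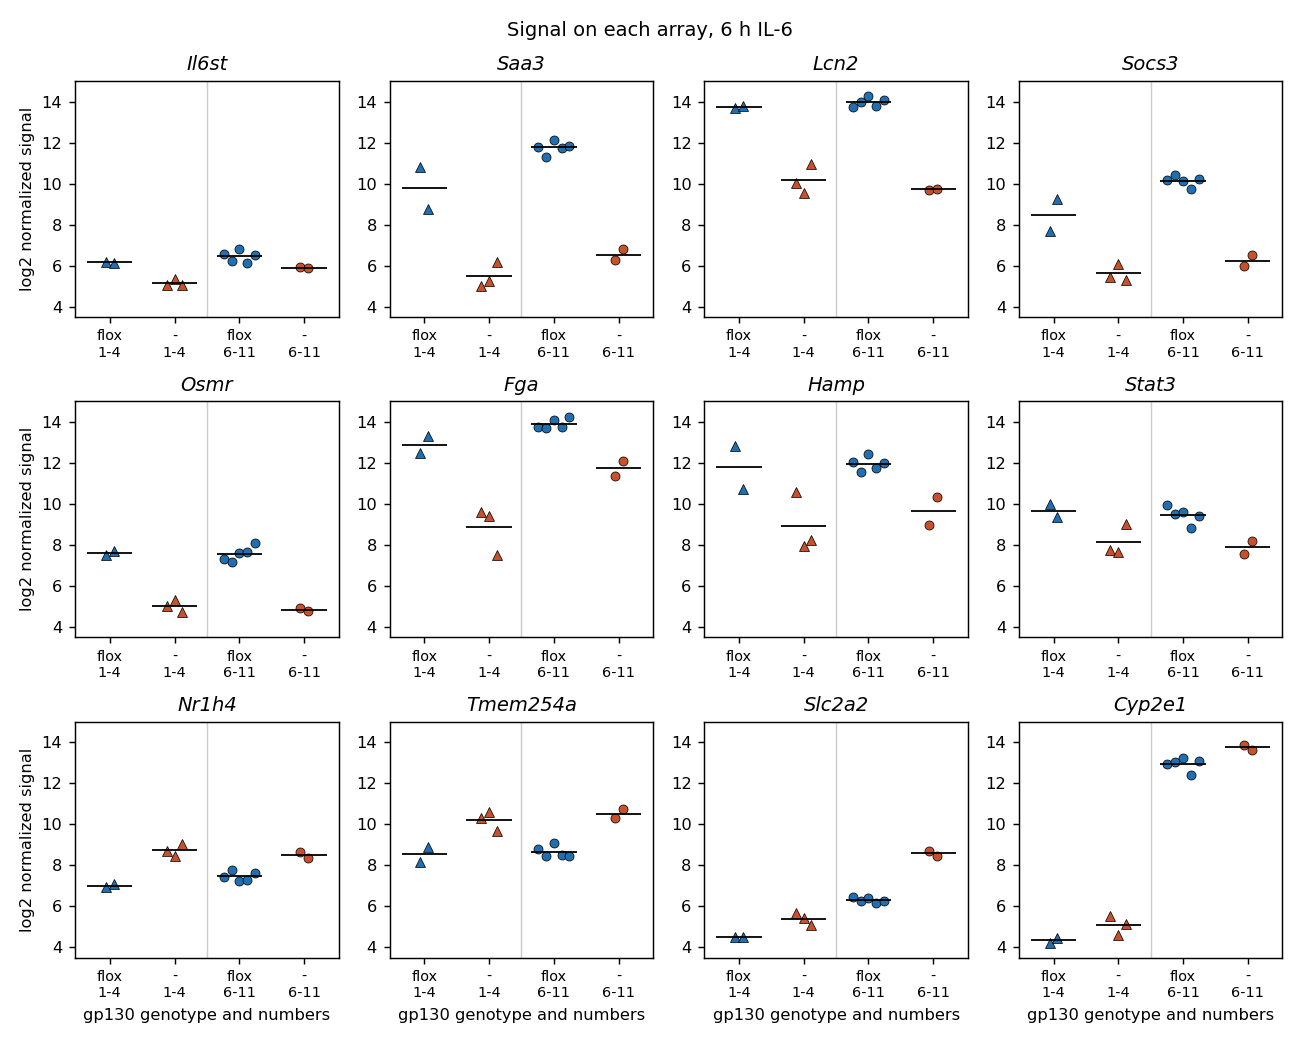
Log2 normalized signal of 12 genes on each of the 12 arrays at 6 h, by gp130 genotype (flox, control; -, deficient) and by the number in the column name (triangles 1-4, circles 6-11); a point is an array and a bar the mean of its group. Il6st, Saa3, Lcn2, Socs3, Osmr, Fga and Hamp were lower on every gp130- array, Nr1h4 and Tmem254a were higher on every one, and Cyp2e1 differed far more between the sets of numbers than between the genotypes.

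The deepest differences were in acute phase genes. Serum amyloid A proteins are carried in high-density lipoprotein and rise steeply in inflammation, and Saa1 had the largest difference of all 10014 genes, -4.90 (SE 0.34, limma adjusted p = 9.03e-07). Another Saa1 probe gave -2.04 (SE 0.54, limma adjusted p = 0.0511) and was not called. The level of the brighter probe on the gp130flox arrays was 7.72 and 8.46 in numbers 1 to 4 and between 14.04 and 14.60 in numbers 6 to 11. On the gp130- arrays it was 4.22, 4.18 and 4.81 in numbers 1 to 4, the first 2 of them not detected, and 8.11 and 8.67 in numbers 6 to 11, so the ranges overlapped over both sets but not within either. Saa3 was at 10.81 and 8.73 on gp130flox arrays 1 and 2 and between 11.29 and 12.12 on the other 5. The gp130- arrays all had less Saa3, between 5.02 and 6.81, a difference of -4.80 (SE 0.34, limma adjusted p = 9.03e-07). Saa4, the constitutive member, differed by -1.03 (SE 0.23, limma adjusted p = 0.0196). Saa2 differed by -1.93 (SE 0.51, limma adjusted p = 0.0456), but this came from numbers 6 to 11 (-3.65), as in numbers 1 to 4 it was near background in both genotypes. The Saa2 call was lost without any 1 of 7 arrays, in the authors' normalized table, with no background correction and with an offset of 50. Saa1 and Saa2 are near-identical genes, and their probes may share signal.

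Lcn2 encodes lipocalin 2, a protein that starves bacteria of iron by binding their siderophores. It was bright on the gp130flox arrays, between 13.68 and 14.25 on all 7. The gp130- arrays had 10.04, 9.54, 10.96, 9.67 and 9.74 (numbers 2, 3, 4, 6 and 7), well above background but below every control, with a difference of -3.93 (SE 0.23, 15.3-fold, limma adjusted p = 2.47e-07). Hamp, the iron hormone hepcidin, went from 10.75 over a median of 12.01 to 12.85 on the gp130flox arrays. On the gp130- arrays it was 10.56, 7.95, 8.26, 8.96 and 10.36 in the same order, a difference of -2.56 (SE 0.46, limma adjusted p = 0.00657). Ceruloplasmin (Cp), a copper-carrying ferroxidase, was lower (-1.27, SE 0.18, limma adjusted p = 0.00120), although 1 of its 3 other probes had the opposite sign. Of the list of 22 iron and metal handling genes tested, 5 were lower and 0 higher, namely Lcn2, Hamp, Cp, Id1 and Hp. Transferrin (-0.14, SE 0.16) and hemopexin (Hpx, -0.22, SE 0.17) did not pass the test (limma adjusted p = 0.710 and 0.521), and Hpx lay between 14.02 and 14.79, at the top of the scale. Another Hpx probe gave -0.65 (SE 0.18, limma adjusted p = 0.0634) and was not called.

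Fibrinogen, the clot-forming protein, is made of chains encoded by separate genes. Fga, its alpha chain, was at 12.49 and 13.29 on gp130flox arrays 1 and 2 and between 13.72 and 14.26 on the others. All gp130- arrays were lower, at 9.63, 9.42 and 7.53 in numbers 1 to 4 and 11.37 and 12.11 in numbers 6 to 11, a difference of -3.02 (SE 0.40, limma adjusted p = 6.48e-04). Fgg, the gamma chain, differed by -1.44 (SE 0.30, limma adjusted p = 0.0171), by more in numbers 1 to 4 (-2.54) than in numbers 6 to 11 (-0.51; limma adjusted p of the difference between sets = 0.00674). Fgb, the beta chain, was not tested, being detected on 1 gp130flox array of numbers 1 to 4, 2 of numbers 6 to 11 and 0 gp130- arrays. Pros1, the anticoagulant protein S, was lower as well (-1.42, SE 0.16, limma adjusted p = 1.82e-04). Of 22 coagulation genes tested 4 were lower and 3 higher, the latter F13b (1.17), Klkb1 and F5, where 2.34% and 1.66% of all genes tested were. The median of the list was 0.29, so the fibrinogen chains tested did not stand for their list.

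Other acute phase proteins were lower too. The orosomucoids, plasma proteins that bind drugs, gave -2.37 for Orm2 (SE 0.52, limma adjusted p = 0.0196) and -2.10 for Orm1 (SE 0.53, limma adjusted p = 0.0383), and these 2 near-identical genes may share signal. The Orm2 call was lost without gp130- array 6 or 7, and the Orm1 call without any 1 of 9 arrays (highest limma adjusted p = 0.0980). Lrg1, a leucine-rich plasma glycoprotein, was lower (-2.34, SE 0.26, limma adjusted p = 1.35e-04), and Fgl1, a hepatocyte-secreted protein related to fibrinogen, likewise (-2.28, SE 0.21, limma adjusted p = 2.61e-05). Haptoglobin (Hp), which binds free hemoglobin, was lower (-1.15, SE 0.25, limma adjusted p = 0.0187), and so was Serping1, the C1 inhibitor (-1.12, SE 0.23, limma adjusted p = 0.0147). The Hp call was lost without gp130- array 7, and both calls were lost within numbers 6 to 11 alone. Other Hp probes gave -1.28 and -1.62. The study, which used another test, reports that Orm2 and haptoglobin differed but missed its significance level. Among 29 positive acute phase genes tested, 14 were lower and 1 higher, the median being -0.81 against -0.01 over all genes. Over all genes tested 2.34% were lower and 1.66% higher, and this list was written with earlier results of these data known. The 1 higher gene of the list was Mbl2, mannose-binding lectin, a starter of the complement cascade (1.14, SE 0.21, limma adjusted p = 0.00860). Without gp130- array 7 the lower genes of the list were 9. In numbers 6 to 11 alone 14 of the 29 were called lower, and in numbers 1 to 4 alone 0, where a single gene of all those tested was called.

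Of 15 negative acute phase genes 0 were called higher and 1 was called lower, Serpina7, the thyroxine-binding globulin, which ranged from 8.77 to 11.48 on the gp130flox arrays and from 4.94 to 9.36 on the gp130- arrays (-2.74, SE 0.52, limma adjusted p = 0.00871). The median of the list was 0.70, and 3 of its members lay below 0. Apoa1, the main protein of high-density lipoprotein, gave 1.26 (SE 0.34) and transthyretin (Ttr) 0.83 (SE 0.25), and neither passed the test (limma adjusted p = 0.0515 and 0.0827). Apoa1 differed between the sets, with 2.56 in numbers 1 to 4 and 0.16 in numbers 6 to 11 (limma adjusted p of the difference = 0.00198).

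Of 27 genes listed as STAT3 targets and tested, 18 were called lower and 0 higher, with a median of -1.29, and 9 were not called. Over all genes tested 2.34% were lower. The list was written with earlier results of these data known and holds genes that the study names, such as Lcn2, Osmr and Socs3. Its count is therefore no independent evidence. Icam1, an adhesion molecule for leukocytes, was among those called lower. It was between 9.48 and 9.95 on the gp130flox arrays and between 8.00 and 8.73 on the gp130- arrays (-1.29, SE 0.16, limma adjusted p = 2.93e-04). The RefSeq promoters of 4 of the called genes are shown because 3 of them hold the STAT letters TTC and GAA with any 3 letters N between them, TTCNNNGAA, which read the same on both strands, and the fourth, that of the gene with the smallest adjusted p, does not. Each runs 5′ to 3′ from 250 bases before the start of the gene to 50 after it, on GRCm38.p6, with the match in capitals.
Socs3, chr11:117969317-117969616, minus strand: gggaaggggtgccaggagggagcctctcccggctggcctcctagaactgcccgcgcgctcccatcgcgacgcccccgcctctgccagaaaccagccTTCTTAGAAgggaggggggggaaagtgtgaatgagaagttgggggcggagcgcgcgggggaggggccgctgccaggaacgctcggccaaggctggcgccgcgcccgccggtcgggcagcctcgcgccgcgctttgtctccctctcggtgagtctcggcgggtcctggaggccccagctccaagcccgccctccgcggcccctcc
Icam1, chr9:21015690-21015989, plus strand: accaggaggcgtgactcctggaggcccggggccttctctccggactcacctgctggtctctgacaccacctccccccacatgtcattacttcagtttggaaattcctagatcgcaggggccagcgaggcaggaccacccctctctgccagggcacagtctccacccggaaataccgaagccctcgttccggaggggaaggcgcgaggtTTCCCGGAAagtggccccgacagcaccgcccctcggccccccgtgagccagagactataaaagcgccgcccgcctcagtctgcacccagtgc
Fga, chr3:83025903-83026202, plus strand: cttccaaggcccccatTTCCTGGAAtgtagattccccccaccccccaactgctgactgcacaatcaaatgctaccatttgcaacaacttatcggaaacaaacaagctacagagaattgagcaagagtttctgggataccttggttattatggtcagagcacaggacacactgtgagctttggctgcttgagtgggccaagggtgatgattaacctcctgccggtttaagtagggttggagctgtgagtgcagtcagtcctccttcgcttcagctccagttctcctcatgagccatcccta
Lcn2, chr2:32387690-32387989, minus strand: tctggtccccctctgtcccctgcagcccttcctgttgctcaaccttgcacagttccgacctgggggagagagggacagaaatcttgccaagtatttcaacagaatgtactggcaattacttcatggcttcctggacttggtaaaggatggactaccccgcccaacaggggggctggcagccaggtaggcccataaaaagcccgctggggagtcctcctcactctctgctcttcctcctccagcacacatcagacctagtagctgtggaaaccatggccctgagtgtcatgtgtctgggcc
The matches are TTCTTAGAA at -154 from the start in Socs3, TTCCCGGAA at -42 in Icam1 and TTCCTGGAA at -234 in Fga. Hamp held 1 match at -97 and Tgm1 held 2, at -173 and -64, while the promoters of Osmr and Bcl3 held 0. Such a match was in 8.3% of 32851 promoters of the table, in 6.94% of those of tested genes, in 9.43% of 265 promoters of genes called lower and in 5% of 180 promoters of genes called higher. By gene, 5 of the 17 called STAT3 targets in the table and 8.32% of the tested genes had a match. A match of letters is a description and not a measured binding site.

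Of the feedback genes of the pathway, Socs3 was among the deepest losses. Socs3, the main brake on gp130 signaling, was at 7.67 and 9.23 on gp130flox arrays 1 and 2 and between 9.72 and 10.39 on the other 5. On gp130- arrays 2, 3, 4, 6 and 7 it was 5.46, 6.07, 5.30, 5.98 and 6.49, and the difference was -3.41 (SE 0.28, 10.6-fold, limma adjusted p = 6.06e-06). Cish, a SOCS family member that inhibits STAT5, gave -1.35 (SE 0.18, limma adjusted p = 6.81e-04). Socs2, which restrains growth hormone signaling, passed narrowly (-1.04, SE 0.28, limma adjusted p = 0.0494) and lost the call without any 1 of 10 arrays. The SOCS list held 7 genes tested, 3 lower and 0 higher, with a median of -0.71.

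Stat3 itself was lower in gp130- cells. It ran from 8.83 over a median of 9.50 to 9.99 on the gp130flox arrays and was 7.74, 7.68, 9.02, 7.57 and 8.18 on the gp130- arrays. Array 4 of gp130- lay above the lowest control and the other 4 below all controls. The difference was -1.55 (SE 0.26, limma adjusted p = 0.00449), and 2 other Stat3 probes gave -1.47 and -1.52. Jak3, a Janus kinase best known from lymphocytes, was dim but lower on all gp130- arrays (-0.95, SE 0.17, limma adjusted p = 0.00606). The other 13 of 15 kinases, STAT factors and their regulators were not called, among them Jak2 (-0.15, SE 0.16, limma adjusted p = 0.694).

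Osmr, the oncostatin M receptor that pairs with gp130, parted the genotypes widely and alike in both sets. The gp130flox arrays ran from 7.17 over a median of 7.63 to 8.12. On the gp130- arrays it was 5.02, 5.33, 4.74, 4.93 and 4.76, just above background on all 5, and the difference was -2.67 (SE 0.18, limma adjusted p = 9.03e-07), with -2.58 in numbers 1 to 4 and -2.73 in numbers 6 to 11. Clcf1, a cytokine of the IL-6 family, was lower (-0.83, SE 0.20, limma adjusted p = 0.0338), a call lost without any 1 of 7 arrays. Il6ra, the IL-6 receptor chain, gave -0.46 (SE 0.23, limma adjusted p = 0.293). Of 7 receptors and cytokines of the gp130 family tested, 3 were lower, Il6st included, and 0 higher.

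Of 17 regulators of NF-kappaB tested, 3 were lower and 0 higher, where 2.34% of all genes tested were lower. Nfkbiz, a nuclear IkappaB protein that acts with NF-kappaB on defense genes, was between 9.27 and 9.73 on the gp130flox arrays and between 7.44 and 8.24 on the gp130- arrays (-1.80, SE 0.14, limma adjusted p = 2.36e-06). Bcl3, its relative, ran from 7.48 over 8.36 to 8.86 in controls and was 5.57, 6.45, 5.83, 5.81 and 6.82 on the gp130- arrays (-2.09, SE 0.28, limma adjusted p = 6.81e-04). Tnfaip3, the deubiquitinase A20, passed narrowly (-0.65, SE 0.17, limma adjusted p = 0.0447) and lost the call without any 1 of 11 arrays, and without the low Apoe arrays (limma adjusted p = 0.135). The remaining 14 of 17 genes of the list, with Rela, Nfkb2, Relb and Nfkbia among them, were not called and the median was -0.06. Of 16 Toll-like and IL-1 receptor signaling genes 2 were lower, the adaptor Tirap (-0.99, SE 0.16, limma adjusted p = 0.00283) and Irak3, a brake on these receptors (-0.97, SE 0.21, limma adjusted p = 0.0214). Myd88 gave -0.44 (SE 0.16, limma adjusted p = 0.136) and Tlr4 0.16 (SE 0.15, limma adjusted p = 0.632).

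Cytokine and chemokine genes differed singly. The neutrophil chemokine Cxcl1 was lower (-1.59, SE 0.29, limma adjusted p = 0.00657), as the only called gene of 17 chemokines, and Cxcl2 gave 0.62 (SE 0.26, limma adjusted p = 0.210). Il13ra1, a receptor chain for IL-4 and IL-13, was lower on all gp130- arrays (-1.75, SE 0.19, limma adjusted p = 1.20e-04). Il24 was also lower on all of them (-1.35, SE 0.22, limma adjusted p = 0.00406) and was detected on 1 of 5. Il15ra was higher (0.64, SE 0.15, limma adjusted p = 0.0288), but other Il15ra probes gave 0.43 and 0.21 and were not called (limma adjusted p = 0.177 and 0.592). The Il15ra call was lost without any 1 of 5 arrays and without the low Apoe arrays. It was also lost in the authors' normalized table, with no background correction and with an offset of 50. Il23a, a chain of IL-23, had the largest gain, 1.88 (SE 0.48, limma adjusted p = 0.0408), yet the 2 gp130- arrays of numbers 6 to 11 carried it: the difference there was 3.46 and in numbers 1 to 4 it was 0.00 (limma adjusted p of the difference between sets = 6.49e-04).

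Of 16 immediate early genes tested, 6 were lower after 6 h. Junb, an AP-1 subunit, was between 9.81 and 10.26 on the gp130flox arrays and at 8.87, 9.02, 7.04, 8.59 and 8.52 on the gp130- arrays (-1.64, SE 0.28, limma adjusted p = 0.00518). Fos (-1.29, SE 0.26, limma adjusted p = 0.0123), Fosl2 (-0.79, SE 0.17, limma adjusted p = 0.0196) and Egr1 (-1.01, SE 0.22, limma adjusted p = 0.0210) were lower as well, although each lost its call without gp130- array 7. No gene of this list was called higher, its median was -0.48, and Myc (-0.43, SE 0.21, limma adjusted p = 0.280) was among those not called. Cebpb, which acts with STAT3 on acute phase genes, was lower on all gp130- arrays (-1.37, SE 0.19, limma adjusted p = 0.00110), whereas its relative Cebpd gave -0.27 (SE 0.18, limma adjusted p = 0.465). Onecut2, a liver-enriched factor, was lower (-1.49, SE 0.28, limma adjusted p = 0.00836). The kinase Pim3, which promotes survival, was lower on every gp130- array (-0.96, SE 0.16, limma adjusted p = 0.00417), and so was Bcl2l11, the death-promoting Bim (-0.93, SE 0.18, limma adjusted p = 0.0105). Other Bcl2l11 probes gave -0.18 and -0.64 (limma adjusted p = 0.664 and 0.0414), and the Bcl2l11 call was lost without gp130- array 6.

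Genes of BMP and activin signaling, which regulates hepcidin and liver growth, were lower in part. Id1, a BMP-responsive inhibitor of transcription factors, was between 8.18 and 9.37 on the gp130flox arrays and at 7.24, 7.71, 6.21, 5.86 and 6.49 on the gp130- arrays (-2.16, SE 0.24, limma adjusted p = 1.41e-04). The ligand Bmp4 (-1.37, SE 0.18, limma adjusted p = 5.89e-04), the activin subunit Inhba (-1.38, SE 0.25, limma adjusted p = 0.00673) and the signal transducer Smad1 (-0.71, SE 0.14, limma adjusted p = 0.0127) were lower too. Another Smad1 probe gave -0.42 (limma adjusted p = 0.287), and the Smad1 call was lost without gp130- array 6 or 7. In all 6 of 17 genes of this list were lower and 0 higher. Among 24 genes of the extracellular matrix and its proteases 4 were lower and 1 higher. They include Timp1, an inhibitor of matrix metalloproteinases (-2.71, SE 0.55, limma adjusted p = 0.0134), Tgm1, a protein-crosslinking enzyme (-1.66, SE 0.22, limma adjusted p = 6.81e-04), and fibronectin (Fn1, -1.24, SE 0.24, limma adjusted p = 0.0109). Other Fn1 probes gave -0.63 and -0.87 and were not called (limma adjusted p = 0.281 and 0.0625). The Fn1 call was lost without gp130- array 7 and within numbers 6 to 11 alone. The Timp1 difference was -0.79 in numbers 1 to 4 and -4.33 in numbers 6 to 11 (limma adjusted p of the difference = 0.0194), and its call was lost without gp130- array 6 or 7.

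Some of the largest losses lay outside these groups. Tor1aip2, which encodes a partner of torsin in the nuclear envelope, was between 7.18 and 8.88 on the gp130flox arrays. It was not detected on gp130- arrays 2, 3, 6 and 7, between 4.31 and 4.38, but was at 7.10 on array 4 (-3.32, SE 0.44, limma adjusted p = 6.48e-04), and 2 other probes gave -1.75 and -0.26. Wfdc2, a secreted protease inhibitor-like protein, was lower (-3.17, SE 0.61, limma adjusted p = 0.0104), with -5.14 in numbers 6 to 11 against -0.83 in numbers 1 to 4 (limma adjusted p of the difference = 0.00198), and its call was lost without gp130- array 6 or 7. Pdzrn3, a ubiquitin ligase, was lower on all gp130- arrays (-2.74, SE 0.37, limma adjusted p = 7.92e-04), and Tpbg, a membrane glycoprotein of trophoblasts, was lower within both sets (-2.34, SE 0.35, limma adjusted p = 0.00184). Mpg, a DNA glycosylase, was detected on all 7 gp130flox and 0 gp130- arrays by its brightest probe, and was at least 2.84-fold lower (limma adjusted p = 1.26e-05), whereas 2 other Mpg probes gave smaller log2 differences of -0.83 and -0.44 (limma adjusted p = 0.0325 and 0.207). Rasl12, a small GTPase, was also detected on all 7 gp130flox and 0 gp130- arrays and was at least 2.54-fold lower (limma adjusted p = 0.00144). Dppa3, detected on the 5 gp130flox arrays of numbers 6 to 11 alone, was at least 1.97-fold lower (limma adjusted p = 0.0494), a call lost without any 1 of 7 arrays. The clock gene Arntl2, detected on 6 gp130flox arrays, was at least 1.29-fold lower (limma adjusted p = 0.0204), a call lost without any 1 of 3 arrays. These bounds set the lowest detected signal of each gp130- array, where it exceeds that of the probe, against the gp130flox mean. A list of 17 genes taken from the study was lower throughout in gp130- hepatocytes at 6 h. Of them Fga, Tgm1, Arntl2, Mpg and Tor1aip2 do not appear in the text of the study seen here. Other genes that the study mentions, such as Myd88 and Cxcl2, are outside this list and were not called. The listed genes were picked with the same samples known, so their direction is no independent evidence. The study also measured some of them by real-time PCR and ELISA, which were not used here.

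Among the genes higher in gp130- hepatocytes were 4 nuclear receptors of liver metabolism. The bile acid receptor FXR, Nr1h4, was between 6.92 and 7.76 on the gp130flox arrays and at 8.72, 8.45, 9.05, 8.66 and 8.35 on the gp130- arrays, above every control (1.35, SE 0.18, limma adjusted p = 6.81e-04). The drug-sensing receptors Nr1i2 (PXR; 1.05, SE 0.20, limma adjusted p = 0.0104) and Nr1i3 (CAR; 0.69, SE 0.18, limma adjusted p = 0.0469) and the lipid receptor Pparg (0.73, SE 0.15, limma adjusted p = 0.0134) were higher too. Nr1i3 lost its call without any 1 of 7 arrays and Nr1i2 without gp130- array 6. Pparg lost its call without gp130- array 7 and within numbers 6 to 11 alone, while Nr1h4 kept its call without any 1 array. Of 17 nuclear receptors and coactivators tested, 4 were higher and 0 lower, and the median was 0.18. Hnf4a gave 0.70 (SE 0.24, limma adjusted p = 0.116).

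Enzymes that modify drugs and steroids were higher in part. Cyp2a4, a steroid hydroxylase, was detected on 2 of 7 gp130flox and on all 5 gp130- arrays (1.75, SE 0.33, limma adjusted p = 0.00860), and its near-identical copy Cyp2a5 may share signal. Its call was lost without gp130- array 6 or 7. Cyp2b10 (1.28, SE 0.30, limma adjusted p = 0.0257), Cyp4a14 (0.97, SE 0.25, limma adjusted p = 0.0383), Cyp3a11 (0.93, SE 0.24, limma adjusted p = 0.0387) and Cyp2e1 (0.79, SE 0.18, limma adjusted p = 0.0275) completed the 5 higher of 33 cytochromes P450 tested, 0 being lower. Cyp4a14 lost its call without any 1 of 9 arrays, Cyp3a11 without any 1 of 7, and Cyp2b10 and Cyp2e1 without any 1 of 3. Their levels were set above all by the numbers: Cyp2e1, which oxidizes ethanol, was at 4.22 and 4.46 on gp130flox and 5.51, 4.63 and 5.15 on gp130- arrays of numbers 1 to 4. In numbers 6 to 11 it was between 12.43 and 13.22 on gp130flox and at 13.87 and 13.65 on gp130- arrays. Pooled over the sets its gp130- mean of 8.56 lay below the gp130flox mean of 10.49, so the direction of this gene rests on the covariate, as it does for Cyp3a11 and Cyp4a14. The median of the P450 list was 0.46, with 0.10 in numbers 1 to 4 and 0.69 in numbers 6 to 11.

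Of 38 phase II enzymes, which conjugate drugs and toxins, 7 were higher and 0 lower, with a median of 0.70. They include the sulfotransferases Sult1c2 (1.40, SE 0.21, limma adjusted p = 0.00189) and Sult1d1 (0.77, SE 0.19, limma adjusted p = 0.0327; another probe -0.15), the glutathione transferase Gstt2 (1.03, SE 0.18, limma adjusted p = 0.00602) and the epoxide hydrolase Ephx2 (1.09, SE 0.22, limma adjusted p = 0.0139). Without the arrays of Xist signal 20 of them and 10 of the P450 genes were higher, and within numbers 6 to 11 alone 25 and 16. With no set term 0 and 1 were higher. Without gp130- array 6 or 7, 2 phase II and 0 P450 genes were higher, and without gp130flox array 7, 8, 9 or 11 the numbers were 3 and at most 3. Without gp130flox array 1, 21 phase II enzymes were higher, without gp130- array 3 there were 11, and without gp130flox array 10 there were 3 P450 genes. Ugt1a9, a glucuronosyltransferase whose exons are shared by other Ugt1a transcripts, was higher (1.84, SE 0.40, limma adjusted p = 0.0188), but lost the call without gp130- array 6 or 7.

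Some enzymes of amino acid and fuel metabolism were among the other large gains. Cdo1, which degrades cysteine, was higher (1.71, SE 0.28, limma adjusted p = 0.00354), Adh1, alcohol dehydrogenase, likewise (1.67, SE 0.29, limma adjusted p = 0.00518), and so was Cps1, the first enzyme of the urea cycle (1.59, SE 0.31, limma adjusted p = 0.0103). Slc2a2, the glucose transporter of the hepatocyte membrane, was at 4.53 and 4.51 on gp130flox and 5.65, 5.41 and 5.09 on gp130- arrays of numbers 1 to 4. In numbers 6 to 11 it was between 6.15 and 6.46 on gp130flox and at 8.70 and 8.47 on gp130- arrays, a difference of 1.63 over both sets (SE 0.23, limma adjusted p = 9.67e-04). Bbox1, the last enzyme of carnitine synthesis, was higher (1.53, SE 0.20, limma adjusted p = 5.64e-04). In fatty acid oxidation and ketogenesis 3 of 20 genes were higher and 0 lower, namely Bdh1 (1.23, SE 0.19, limma adjusted p = 0.00246), Acaa1b (1.33, SE 0.30, limma adjusted p = 0.0216) and Acaa2 (0.99, SE 0.19, limma adjusted p = 0.0102). Egln3, an oxygen-sensing prolyl hydroxylase (1.65, SE 0.32, limma adjusted p = 0.0104), and Ankrd37 (1.53, SE 0.40, limma adjusted p = 0.0432) were higher too, Ankrd37 by 0.05 in numbers 1 to 4 and 2.77 in numbers 6 to 11 (limma adjusted p of the difference = 0.00426). The calls of Cps1, Egln3, Ankrd37 and Depp1 (1.52) were lost without gp130- array 6 or 7.

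Tmem254a, a membrane protein gene with near-identical copies, was between 8.17 and 9.11 on the gp130flox arrays and at 10.32, 10.60, 9.67, 10.30 and 10.75 on the gp130- arrays (1.77, SE 0.21, limma adjusted p = 2.35e-04). Smpdl3b, a membrane phosphodiesterase, was between 5.71 and 6.78 in controls and at 8.27, 7.56, 7.14, 8.45 and 7.98 on the gp130- arrays (1.62, SE 0.20, limma adjusted p = 3.28e-04). Both differed alike in numbers 1 to 4 and 6 to 11, by 1.66 and 1.86 for Tmem254a and by 1.61 and 1.62 for Smpdl3b. Slc17a4, a phosphate transporter family member, gave 1.63 (SE 0.29, limma adjusted p = 0.00657), with 0.68 in numbers 1 to 4 and 2.44 in numbers 6 to 11, and lost its call without gp130- array 7. St3gal6, a sialyltransferase, gave 1.53 (SE 0.32, limma adjusted p = 0.0163), with 1.00 and 1.97, and lost its call without gp130- array 6 or 7.

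Several lists, each too short for 0 calls to stand out from the 3.99% called over all genes, stayed without any call in either direction. These were the 24 interferon response genes (median 0.08), the 25 genes of cholesterol and fatty acid synthesis (0.12), the 23 genes of endoplasmic reticulum stress and heat shock (0.08) and the 14 feedback genes of MAP kinases (-0.17). In numbers 1 to 4 the median of the interferon list was -0.29 and in numbers 6 to 11 it was 0.40. Ifit3, an interferon-induced antiviral protein named here after its values were seen, lay between 8.12 and 8.70 on all gp130flox arrays. It was at 7.33, 7.01 and 6.98 on gp130- arrays 2, 3 and 4 but at 11.03 and 11.32 on arrays 6 and 7, so that the genotypes parted in opposite directions, by -1.03 and 2.61 (limma adjusted p of the difference between sets = 2.73e-05). Of 29 cell cycle genes 1 was lower, the replication helicase subunit Mcm6 (-1.67, SE 0.42, limma adjusted p = 0.0369), whose call was lost without any 1 of 7 arrays. Of 13 clock genes, Dbp (0.88, SE 0.16, limma adjusted p = 0.00635) and Tef (0.66, SE 0.18, limma adjusted p = 0.0494), both output factors of the clock, were higher and Arntl2 lower. Tef lost its call without any 1 of 11 arrays.

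**Figure D2:**
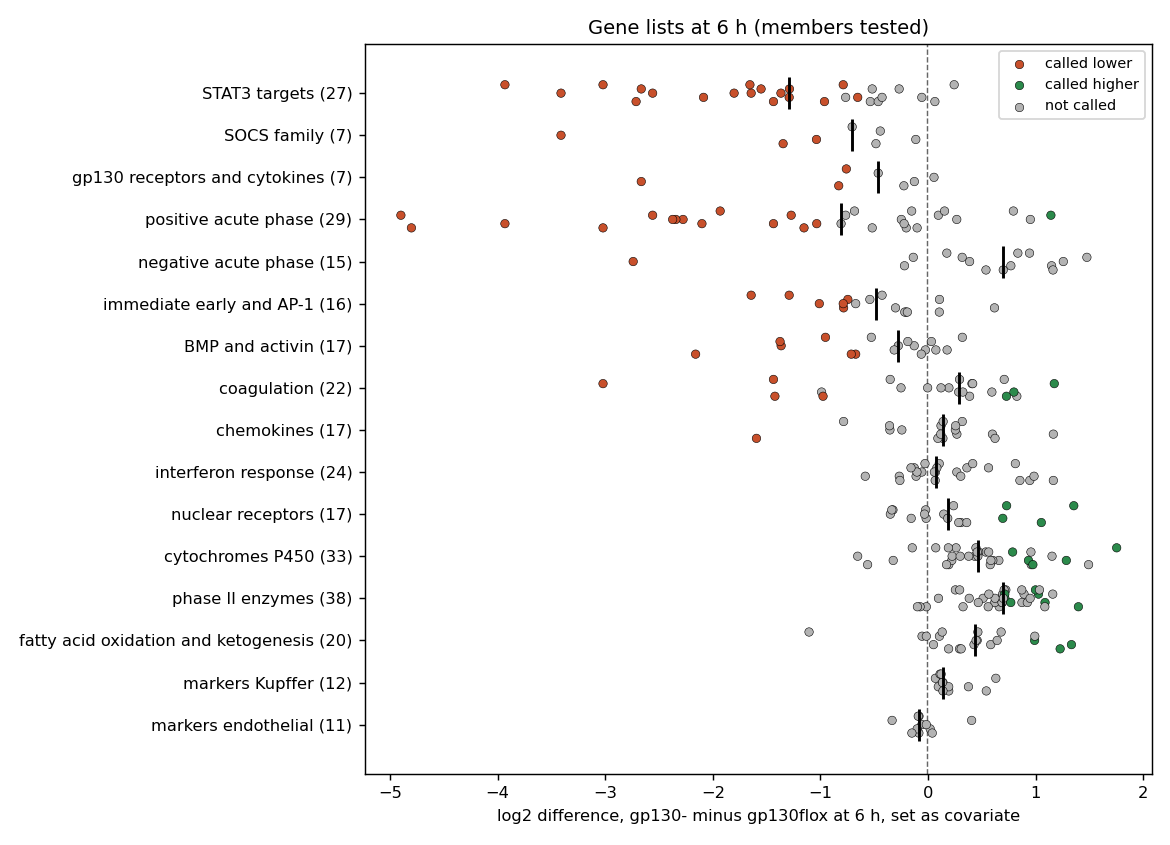
Log2 difference (gp130- minus gp130flox at 6 h, set as covariate) of each tested member of 16 gene lists, with the number tested in parentheses; orange, called lower; green, called higher; gray, not called; black bar, median of the list; dashed line, median of all 10014 genes. STAT3 targets and positive acute phase genes lay to the left with medians of -1.29 and -0.81, and phase II enzymes to the right with a median of 0.70.

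Markers of other liver cells were measured beside these lists, and 0 of the 35 tested were called, comprising 12 of Kupffer cells, 11 of endothelial cells, 5 of cholangiocytes, 5 of stellate cells and 2 of red cells. Over all genes tested 3.99% were called, so 0 of 35 markers is near that share and does not show that these cells were alike. Of 11 leukocyte markers 0 passed the filter. Marker levels moved with the sets, and not all in one direction. The summed linear signal of the Kupffer markers was 1441 to 4121 on gp130flox and 1576 to 7833 on gp130- arrays of numbers 1 to 4. In numbers 6 to 11 it was 7906 to 9486 and 6881 to 7574. The sum of the cholangiocyte markers was instead larger in numbers 1 to 4, 4890 to 5710 on gp130flox and 5323 to 6803 on gp130- arrays. In numbers 6 to 11 that sum was 3446 to 4701 and 2879 to 3218. Defining markers not detected on any array were Cd5l and Cd163 of 14 Kupffer, Epcam, Cftr and Prom1 of 9 cholangiocyte and Lrat, Col1a2 and Pdgfrb of 14 stellate markers. The summed signal of the hepatocyte markers was 27247 to 32665 on gp130flox and 26445 to 41512 on gp130- arrays of numbers 1 to 4. In numbers 6 to 11 it was 75781 to 89757 on gp130flox and 105010 to 120520 on gp130- arrays, so the groups did not overlap there. Of 16 hepatocyte markers tested 4 were higher, Cps1, Cyp2e1, Hpd (0.90) and Cyp3a11, and 0 lower. What part this has in the gains of metabolic genes was not tested.

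A test of whether the genotype difference depended on the set called 55 genes at an adjusted p under 0.05 (0.549%), while 1231 passed at an unadjusted p (12.3%). With all 61 arrays in the fit 2535 were called, but that fit took all times together. It also counted arrays of the same genotype and number as independent, so it is not the same test. Of the 55 genes, 12 were among the 234 lower and 8 among the 166 higher genes. Beside those given above, Saa1 differed by -3.69 in numbers 1 to 4 and by -5.91 in numbers 6 to 11 (limma adjusted p of the difference = 0.0173), and in the former the gp130- arrays lay near background. Cyp2b10 gave 0.14 and 2.25 (limma adjusted p = 0.00106), Slc2a2 0.87 and 2.27 (limma adjusted p = 0.0428) and Tpbg -1.14 and -3.36 (limma adjusted p = 0.0297). Where a gene was near background in one set, that set could not show a difference.

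**Figure D3:**
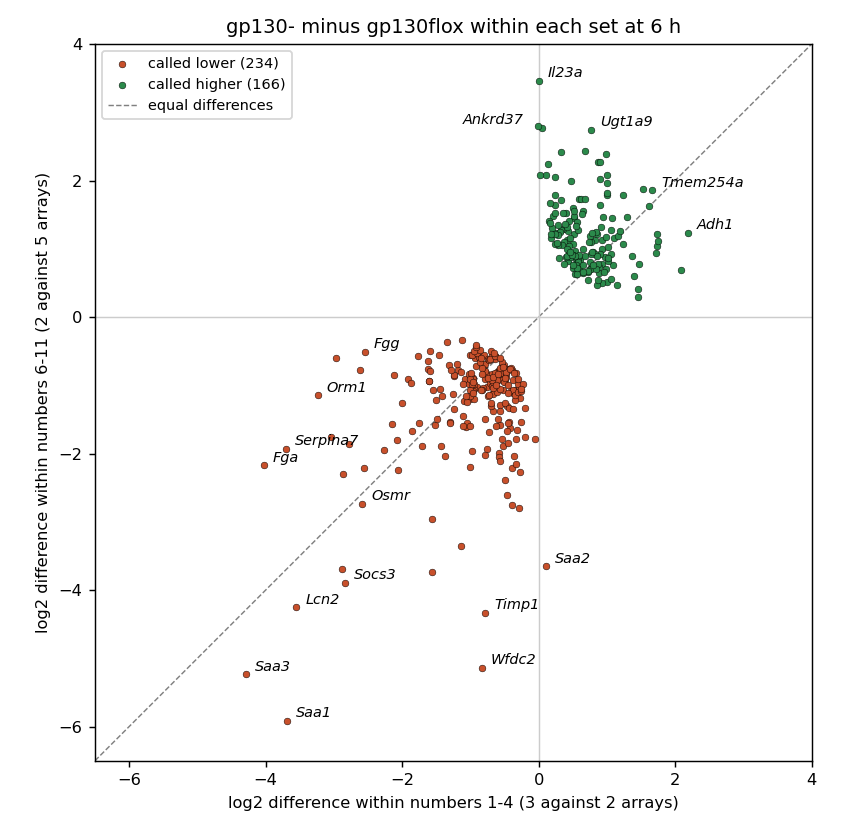
Log2 difference between genotypes within numbers 6-11 (y axis) against that within numbers 1-4 (x axis) for the 234 genes called lower (orange) and the 166 called higher (green) at 6 h; the dashed line marks equal differences. Osmr, Lcn2 and Tmem254a lie near the line, whereas Wfdc2, Timp1, Saa2 and Il23a differ mainly within numbers 6-11.

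The difference at 6 h was set against that before IL-6, on 7 gp130flox and 6 gp130- arrays at 0 h, to ask for which genes the cytokine widens it. Without IL-6, 46 genes were lower (0.459%) and 37 higher (0.369%) by the same test, and 40 and 32 of them were called in the same direction at 6 h, where the arrays mostly carry the same numbers. Saa3 already differed by -4.25 at 0 h, Saa1 by -4.62, Lcn2 by -3.56 and Tor1aip2 by -3.50, and Tmem254a by 1.71. Socs3, in contrast, ranged at 0 h from 5.77 to 7.33 on the gp130flox arrays and from 5.26 to 7.01 on the gp130- arrays, which overlapped. Its difference was -0.63 at 0 h (limma adjusted p = 0.0727) and for Bcl3 -0.54 (limma adjusted p = 0.319). The median over the 234 lower genes was -0.53 at 0 h and -0.96 at 6 h, and over the 166 higher genes 0.62 and 0.89.

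With arrays of the same genotype and number taken as 1 block, which no source states that they are, the change from 0 h to 6 h differed between genotypes for 17 of the 10014 genes, 15 more negative (0.15%) and 2 more positive (0.02%) in gp130- cells, and 280 passed at an unadjusted p under 0.05 (2.8%). With no block 1 gene was called and with a random block 6. Socs3 rose by 2.82 in gp130flox cells (limma adjusted p = 4.45e-08) against 0.10 in gp130- cells, a difference of changes of -2.72 (SE 0.28, limma adjusted p = 1.09e-04). Bcl3 rose by 1.45 against -0.17 (-1.62, SE 0.18, limma adjusted p = 2.24e-04), and Timp1 by 1.89 against -0.06 (-1.95, SE 0.34, limma adjusted p = 0.0227). The others with a more negative change were Tpbg, Denn2b, Tgm1, Pdzrn3, Gcnt2, Junb, Bmper, Foxq1, Pdgfb, Amotl2, Efna5 and Noct, and Slc2a2 and Plk2, a kinase of the cell cycle, changed the other way. Of them Efna5, Pdgfb, Noct and Plk2 were not called at 6 h itself. In gp130flox cells 73 genes were higher at 6 h than at 0 h (0.729%) and 23 lower (0.23%). In gp130- cells the same limma test called 0 genes in either direction, with 14 at an unadjusted p under 0.05 and the same fold (0.14%). A change from 0 h includes any effect of time in culture, since no array at 6 h went without IL-6.

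**Figure D4:**
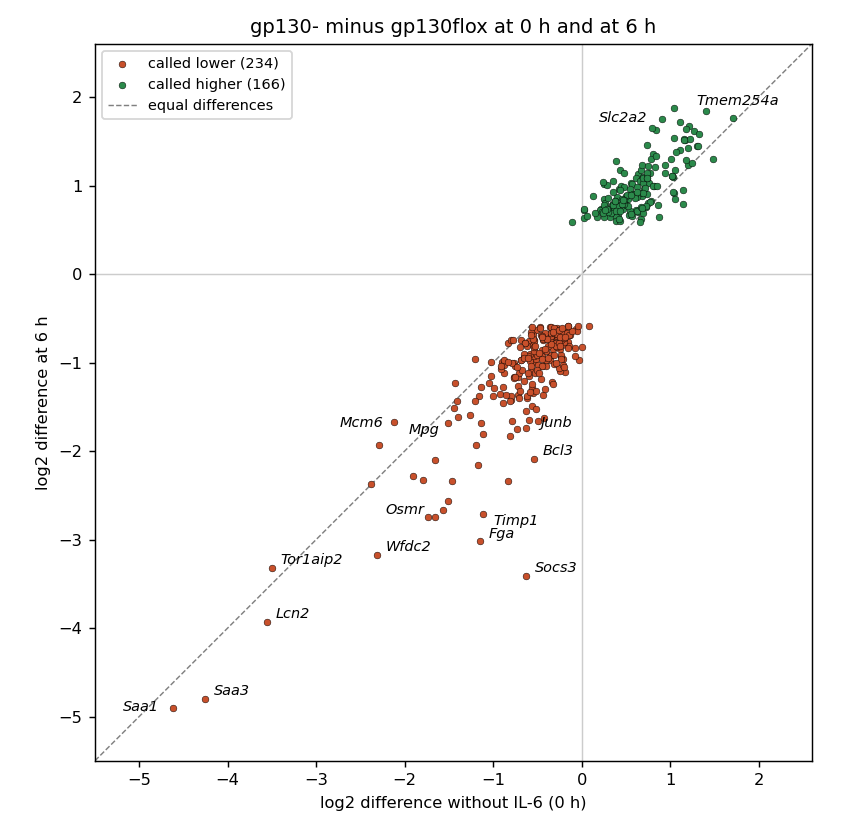
Log2 difference between genotypes at 6 h (y axis) against that at 0 h, without IL-6 (x axis), for the genes called lower (orange) or higher (green) at 6 h; the dashed line marks equal differences. Saa1, Saa3, Lcn2, Tor1aip2, Mpg and Tmem254a lie near the line, and Socs3, Fga, Timp1 and Bcl3 lie below it.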

How the data were processed

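Hepatocyte RNA had been hybridized to Illumina MouseWG-6 v2 bead arrays, and the authors exported the deposited table of average signal intensity and detection p-value per probe from GenomeStudio 1.6.0 without normalization. A second deposited table, of intensity values that the authors normalized by cubic spline, was used only as an alternative (floor 16, then log2). Every value column was assigned to a sample (0 were not), and no column of the authors' own comparisons was used. Signals of all 61 arrays were corrected by normexp with the negative controls estimated from detection p-values (neqc of limma 3.58.1, R 4.3.3, offset 16), quantile normalized and put on a log2 scale. Of 45281 probes, 34885 had 1 gene in the platform annotation, 18 several and 10378 none, and the last 2 kinds were left out. A probe was kept when its detection p was under 0.05 on at least 5 of the 12 arrays at 6 h, with the probe of highest mean over these arrays for each gene. The fit (lmFit and eBayes) held genotype and set over the 12 arrays, since arrays of the same genotype and number at other times may not be independent of them. Differences between sets were tested by genotype by set, and the change from 0 h by a fit with genotype and number as a block, called preparation here without a source for it. On simulated data with 200 of 10014 genes changed, 76% of 2-fold and 98% of 4-fold changes were recovered, with 8 false calls, in the 6 h comparison. The simulated errors were normal and independent for each gene and array, under the same model that was fitted. No array deviated there and the genotype difference was equal in both sets. These figures therefore check the fit and do not measure how reliable the calls on the real arrays are.

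Array signals carry no count depth, so that precision is limited by how many arrays there are. Named were Il6st, the 15 called genes of largest difference each way with the same sign in both sets, and the list from the study. Up to 4 called genes of smallest p and up to 3 well-known genes not called in each list were named too. So were all genes whose change from 0 h differed. Hp, Saa2, Saa4, Orm1, Icam1, Ier3, Ifit3, Rasl12 and Dppa3 were added after their values were seen. The comparison and the gene lists were chosen with earlier results of these data known. Alternatives left out each array, the set term, a set or the arrays with Xist or low Apoe signal, or changed the offset, background, filter, arrays or normalization. The alternatives on low Apoe signal and with Xist as a term were chosen after seeing the data.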

Additional observations from a re-analysis of the deposited data

Results flagged for a closer look

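In 15 of 242 groups of named genes (6.2%) an array lay far from the others by Dixon's criterion, where chance gives about 1 in 20 groups of samples of one kind. The criterion pooled the sets within a genotype, and arrays 1 and 2, which hold most of these values, are the only gp130flox arrays of numbers 1 to 4, so that a difference between the sets and an array that stands apart cannot be told apart there. Array 1 of gp130flox held 7 of them. It was lowest for Cish (8.18), Smpdl3b (5.71), Socs3 (7.67) and Timp1 (7.96) and highest for Cyp2a4 (6.17), Plk2 (10.02) and St3gal6 (6.24). Array 2 of gp130flox was lowest for Saa3 (8.73) and Serpina7 (8.77) and highest for Efna5 (8.40) and Pdgfb (9.12), and array 8 was highest for Col18a1 (9.42). Array 4 of gp130- was lowest for Junb (7.04) and St3gal6 (5.57) and highest for Tor1aip2 (7.10).

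The difference between genotypes itself differed between the sets, as numbers 6 to 11 minus numbers 1 to 4 in the limma fit with an interaction, for 15 named genes. It was more negative in numbers 6 to 11 for Wfdc2 (-4.31), Saa2 (-3.76), Timp1 (-3.54), Apoa1 (-2.40), Saa1 (-2.22), Tpbg (-2.22), Denn2b (-2.14), Dppa3 (-1.73) and Il24 (-1.41). It was more positive for Ifit3 (3.64), Il23a (3.46), Ankrd37 (2.72), Cyp2b10 (2.11), Fgg (2.04) and Slc2a2 (1.40). The 2 gp130- arrays of numbers 6 to 11 carry these values for that genotype.

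The difference between genotypes differed between 6 h and 0 h, as 6 h minus 0 h, for 17 genes. It was more negative at 6 h for Socs3 (-2.72), Timp1 (-1.95), Tpbg (-1.66), Bcl3 (-1.62), Denn2b (-1.35), Tgm1 (-1.33), Pdzrn3 (-1.05), Gcnt2 (-1.04), Junb (-1.03), Bmper (-0.97), Foxq1 (-0.96), Pdgfb (-0.95), Amotl2 (-0.92), Efna5 (-0.91) and Noct (-0.84), and more positive for Slc2a2 (0.94) and Plk2 (0.72).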

How the results depend on the processing

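Of the 234 lower and 166 higher genes, the counts were 33 and 13 with no set term, 477 and 459 within numbers 6 to 11, and 1 and 0 within numbers 1 to 4. They were 331 and 289 with all 61 arrays in the fit, 357 and 350 with preparations as a random block there, 159 and 104 with an offset of 50, and 101 and 68 with no detection filter, which tests more genes. They were 104 and 60 at a fold over 2, 444 and 378 without the arrays of Xist signal, and 525 and 451 with Xist signal as a term. Of the 400 genes, 324 were called again within numbers 6 to 11, where 936 were called, and all 46 called with no set term were among them. Leaving out 1 array gave 74 to 255 lower and 41 to 227 higher genes: the counts were 74 and 41 without gp130- array 7, 88 and 47 without gp130- array 6, and 143 and 92 without gp130flox array 11. Without gp130flox array 8 there were 153 lower genes, and without gp130flox array 7 there were 105 higher genes. Of 104 called genes named here 53 kept the call without any 1 array, and 43 and 45 lost it without gp130- array 6 or 7. The cause of these changes was not tested.

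The Il6st difference missed the call with no set term (-0.92), within numbers 6 to 11 (-0.55) and 1 to 4 (-1.01), in the authors' normalized table (-0.58), with no background correction (-0.53), with an offset of 50 (-0.48) and without the low Apoe arrays (-0.63). Leaving out 1 array gave -0.70 (without gp130flox array 1) to -0.83 (without gp130- array 6), and -0.81 without gp130- array 7, which alone ended the call. The 55 genes that differed between the sets became 2535 with all 61 arrays, in a fit over all times together and without a block. The 17 genes that differed between 6 h and 0 h became 1 with no preparation block, 6 with it as a random block and 5 with no detection filter.

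Lower STAT3 targets, 18, became 11 with no set term, 17 within numbers 6 to 11 and 14 to 18 without 1 array. Lower positive acute phase genes, 14, became 5 with no set term, 7 with no detection filter and 9 to 15 without 1 array. Higher phase II enzymes, 7, became 14 and 21 with all 61 arrays, 12 with array weights, 23 with Xist as a term and 2 with no detection filter. Higher P450 genes, 5, became 8 and 9 with all 61 arrays, 10 with Xist as a term, 3 with an offset of 50, and 0 with no detection filter or with detection on all 12 arrays.

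Directions reversed with no set term for Igfbp2 (-0.57), Apoh (-0.89), F13b (-0.13), Cyp2e1 (-1.93), Cyp4a14 (-0.61), Fbp1 (-0.42), Hpd (-0.57), Cyp3a11 (-1.36), Jak2 (0.19), Cxcl2 (-0.45), Apoa1 (-0.55) and Noct (0.029). Within numbers 1 to 4 they reversed for Saa2 (0.11), Ifit3 (-1.03) and Noct (0.38), and within numbers 6 to 11 for Hpx (0.15).

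The genotypes share the numbers 2 and 7 alone, whose deviations from the means of their genotype and set correlated by 0.192 and -0.0846. Each of these pairs has an array from a group of 2 arrays, whose deviations mirror each other. The values therefore cannot tell whether arrays of the same number belong together. The fit with this number as a replicate block gave 226 lower and 156 higher genes. Signal over background limits dim genes: with levels near 4 in a set, such as Saa2, Cyp3a11 and Hpd in numbers 1 to 4, that set shows no difference, and each set holds at most 3 gp130- arrays.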

Other observations

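A single called gene each in 3 lists was higher in gp130- hepatocytes. Among 17 apolipoproteins it was Apoh, a phospholipid-binding plasma protein (0.91, SE 0.20, limma adjusted p = 0.0204), among 10 genes of the insulin-like growth factor axis it was Igfbp2, a binding protein (0.92, SE 0.17, limma adjusted p = 0.00773), and among 19 genes of glucose metabolism it was the gluconeogenic enzyme Fbp1 (0.73, SE 0.16, limma adjusted p = 0.0196). On the gp130flox arrays Apoh was at 4.53 and 4.84 in numbers 1 to 4 and between 10.16 and 11.27 in numbers 6 to 11, and on the gp130- arrays at 5.73, 5.51 and 5.87 and at 11.26 and 11.40. The set of the array thus parted Apoh by far more than the genotype, and the direction of all 3 genes rests on the set term. Col18a1, whose protein releases endostatin, was the only higher gene of 24 matrix genes (0.75, SE 0.16, limma adjusted p = 0.0173). Of 20 complement genes 1 was lower, Serping1, and 1 higher, Mbl2.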
